A study of Patiria miniata with 6 samples.

Results

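The metalloprotease loci of the bat star Patiria miniata were the 26 loci, carrying 16 gene names, whose every assigned name in the authors' deposited table was that of a matrix metalloproteinase (MMP), an astacin, a tolloid-like protein or an ADAM-family protein other than Pm-Adam10. They were found by name alone among the 27630 loci of that table. The table had a floor on low values, a CPM (read counts scaled to library size) above 2 in at least 3 libraries, and 22 of the 26 loci were above that level in every library. RNA from pooled embryos was sequenced in 2 groups of 3 libraries to ask which transcripts respond to knockdown of the T-box transcription factor Pm-Tbr. The Pm-Tbr MASO group came from zygotes injected with 600 µM of an antisense morpholino directed at Pm-Tbr and was collected as hatched blastulae at 36 hours post fertilization (hpf). The Control MASO group received 600 µM of a standard control morpholino and was collected as hatched blastulae at 30 hpf. Both were reared at 15 °C in artificial seawater, and in both only healthy injected embryos, picked by a tracer dye and by shape, were processed. Morpholino and age cannot be told apart in any comparison that follows, and nothing in the labels ties the replicates to separate spawnings: the p-values rest on the spread among 3 libraries, and that spread may be technical.

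Metalloproteases cleave proteins with a zinc ion held in the active site. MMPs cut extracellular matrix; the membrane-type MMPs do so at the cell surface, and tissue inhibitors of metalloproteinases (TIMPs) block them. Astacins are a separate secreted family that includes tolloid, which releases BMP ligands by cutting their antagonist chordin, and, in sea urchins, the blastula proteins BP10 and SpAN. The enzyme with which sea urchin blastulae digest the fertilization envelope at hatching belongs to the MMP family. ADAM proteins are membrane-bound and shed the outer parts of other surface proteins, while the secreted ADAMTS enzymes process matrix.

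Counts assigned to loci were 17795136 to 28167566 per Pm-Tbr MASO library and 25423004 to 26958581 per Control MASO library. Regulators of the blastula's territories were found in both groups. Their summed level was 602 to 817 CPM in Pm-Tbr MASO libraries and 1279 to 1466 CPM in Control MASO libraries for 6 vegetal and endoderm genes. For the 3 mesoderm genes found of 5 listed it was 151 to 189 CPM in Pm-Tbr MASO libraries and 360 to 484 CPM in Control MASO libraries. For the 6 ectoderm genes found of 7 it was 46.2 to 133 CPM in Pm-Tbr MASO libraries and 564 to 768 CPM in Control MASO libraries. The ectoderm sum includes both loci of Pm-Chordin. They averaged 7.14 and 2.51 CPM in Pm-Tbr MASO libraries and 183 and 66.9 CPM in Control MASO libraries. Such sums do not show what each gene did. In RNA from whole embryos, fewer cells of a kind and less RNA per cell cannot be told apart. The part of these shifts in the protease values was not tested. The target transcript was not analysed here.

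Rises outnumbered falls among the metalloprotease loci. In the quasi-likelihood test of edgeR, 3 loci rose and 1 fell at an adjusted p under 0.05, and 22 did not pass. Of all 44120 tested loci 1.36% were called higher and 0.922% lower, and of the loci the authors tabulated 1.8% were higher and 1.41% lower. The loci that rose were named Pm-Mt1-4/MmpL4, Pm-Astacin5 and Pm-Adam15L1, and the fall was at a locus named Pm-Mt6_mmpL. The median log2 fold change over the 26 loci was 0.86, against 0.01 over all tested loci, and single values ran from -1.81 to 3.18. In 11 loci every Pm-Tbr MASO library was above every Control MASO library, and in 3 every one was below. Such a lack of overlap held for 13.3% of tested loci in each direction, and for 14.1% (higher) and 16.7% (lower) of the loci in the authors' table.

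Same-numbered libraries varied together, so the fit was also made with that number as a block. With the block 12 metalloprotease loci were higher and 3 lower, where 5.83% and 4.26% of all tested loci were called, and 6.97% and 6.18% of those in the authors' table. In 15 loci the Pm-Tbr MASO library was the higher one in all 3 same-numbered pairs, as in 26.2% of the loci in the authors' table, and in 5 it was the lower one in all 3, as in 30% of them. Fewer loci were called without the block when 1 library was left out, over all tested loci 0 to 479 in place of 1008. The called metalloprotease loci kept their direction in each of these fits. No metalloprotease locus passed, in either direction, without Pm-Tbr MASO replicate 1 or without any 1 of the Control MASO replicates, although 12 to 16 of the 26 had an unadjusted p under 0.05 with a library left out, where 15.1% to 19.3% of all tested loci had one. Without Pm-Tbr MASO replicate 2, 1 rise and 0 falls were left, and without Pm-Tbr MASO replicate 3, 2 rises and 1 fall. The authors' deposited table called 11 of the 26 loci higher and 2 lower at a false discovery rate under 0.05, against 5.5% and 3.77% of its loci.

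**Figure D1:**
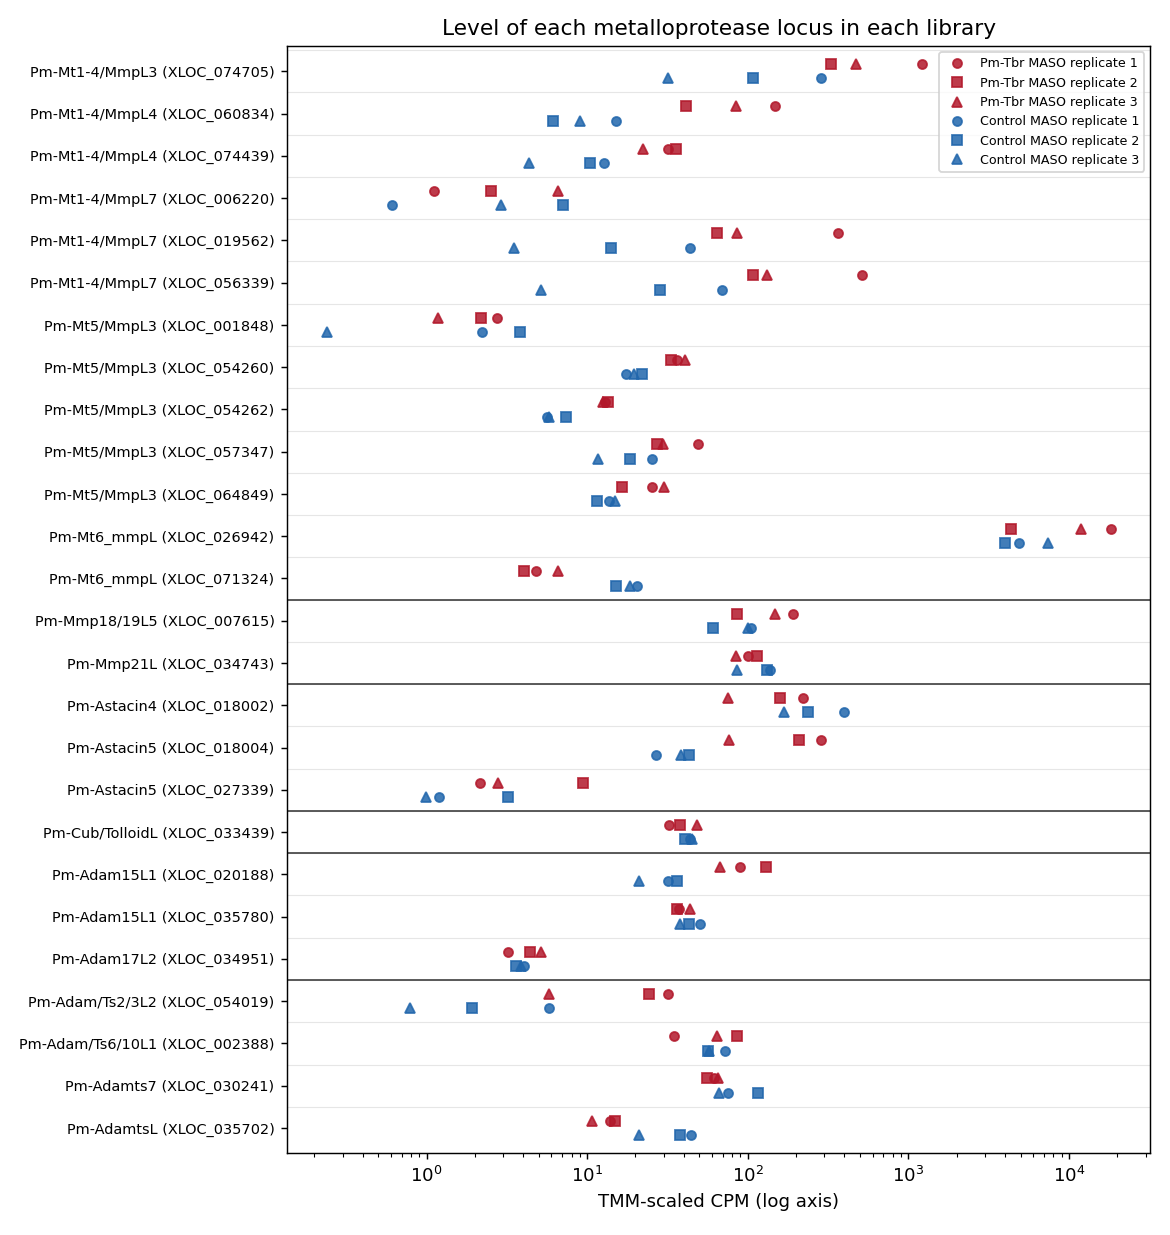
TMM-scaled CPM of the 26 metalloprotease loci on a log axis, 1 symbol per library, Pm-Tbr MASO in red above Control MASO in blue. The groups do not overlap in 14 loci, and Pm-Mt6_mmpL at XLOC_026942 lies above 3988 CPM in every library.

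The membrane-type MMP names made up 13 of the loci. Of these 1 rose, 1 fell and 11 did not pass, beside 1.36% higher and 0.922% lower of all tested loci. With the block 8 were higher and 1 lower, beside 5.83% and 4.26%. Without it 10 of the 13 had an unadjusted p under 0.05 in the quasi-likelihood test. DESeq2 called 6 and the edgeR exact test 7. Over all tested loci these held for 20%, 9.25% and 7.65%. In 9 loci every Pm-Tbr MASO library was above every Control MASO library and in 1 below, beside 13.3% of tested loci each way. The 13 loci carry 5 names, and their median log2 fold change was 1.06.

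Pm-Mt1-4/MmpL4 had the largest fitted rise of the 26 loci without the block. Its locus XLOC_060834, on scaffold 6007 from 14247 to 26823 (minus strand), had 147, 41.5 and 84.5 CPM in Pm-Tbr MASO replicates 1 to 3, against 15.1, 6.10 and 8.98 CPM in Control MASO replicates 1 to 3. The lowest Pm-Tbr MASO library was thus above the highest Control MASO library. The means were 91.0 ± 53.1 CPM and 10.1 ± 4.60 CPM (SD, n = 3 each), with a log2 fold change of 3.18 ± 0.52 (SE, adjusted p = 0.0318). Positions refer to the scaffolds of the authors' table; their build is not given.

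The other locus of that name, XLOC_074439 on scaffold 8589, lay in the same direction. It had 32.0, 35.7 and 22.3 CPM in Pm-Tbr MASO embryos, against 12.7, 10.4 and 4.33 CPM in Control MASO embryos. The groups did not overlap, but the locus did not pass without the block (log2 fold change 1.71 ± 0.41, adjusted p = 0.0691) and was called higher with it (1.82 ± 0.26, adjusted p = 0.00981).

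Pm-Mt1-4/MmpL3 and 2 of the 3 loci named Pm-Mt1-4/MmpL7 combined large differences with a wide spread inside each group. Pm-Mt1-4/MmpL3 (XLOC_074705, scaffold 866 from 47622 to 79585) had 1219, 328 and 474 CPM in Pm-Tbr MASO embryos, against 285, 108 and 32.0 CPM in Control MASO embryos. The Control MASO libraries alone differed 8.92-fold from lowest to highest. Its log2 fold change of 2.25 ± 0.78 did not pass (adjusted p = 0.159), while with the block it was 2.51 ± 0.44 (adjusted p = 0.0170).

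At XLOC_056339 (scaffold 5315 from 9603 to 13098) Pm-Mt1-4/MmpL7 had 512, 108 and 131 CPM in Pm-Tbr MASO embryos, against 68.9, 28.4 and 5.17 CPM in Control MASO embryos. At XLOC_019562 (scaffold 16154 from 8892 to 12033) it had 365, 64.0 and 85.1 CPM in Pm-Tbr MASO embryos, against 44.0, 14.1 and 3.50 CPM in Control MASO embryos. Both loci were higher in every Pm-Tbr MASO library, and in both the Control MASO libraries differed 13.3-fold and 12.6-fold among themselves. Without the block neither passed (adjusted p = 0.139 and 0.133), and with it their log2 fold changes were 3.12 ± 0.50 and 3.24 ± 0.45 (adjusted p = 0.0132 and 0.00918). The locus XLOC_006220 had 1.11, 2.51 and 6.54 CPM in Pm-Tbr MASO embryos, against 0.614, 7.05 and 2.90 CPM in Control MASO embryos. It overlapped between groups and passed in neither fit. Reads of near-identical copies may be split between such loci or dropped as aligning to several places, so single loci of 1 name are uncertain. Summed over its 3 loci, Pm-Mt1-4/MmpL7 had 879, 174 and 223 CPM in Pm-Tbr MASO embryos, against 113, 49.5 and 11.6 CPM in Control MASO embryos.

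In each of these 3 variable loci the 6 libraries stood in 1 order. Pm-Tbr MASO replicate 1 was highest, followed by Pm-Tbr MASO replicates 3 and 2 and then Control MASO replicates 1, 2 and 3. The order was noticed in the values, and it held for 4 of the 26 loci (the other was XLOC_057347, named Pm-Mt5/MmpL3). It held for 0.984% of the loci in the authors' table and for 0.748% of all tested loci. Because the order was read from loci that show it, these shares cannot tell whether it was more frequent among the metalloprotease loci. Of the 4 loci, 2 carry the name Pm-Mt1-4/MmpL7 and may share reads, so they may not be separate evidence. In all, 272 loci of the authors' table had this order, and outside the 26 loci only TIMP names were looked up among them. The inhibitor name Pm-Timp4 (XLOC_017909, scaffold 1554 from 691 to 11355) was found there. It had 292, 64.3 and 94.0 CPM in Pm-Tbr MASO replicates 1 to 3, against 55.3, 25.3 and 5.44 CPM in Control MASO replicates 1 to 3. A link between Pm-Timp4 and the proteases was not tested. Pm-Timp4 did not pass without the block (log2 fold change 2.39 ± 0.83, adjusted p = 0.164) and was called higher with it (2.58 ± 0.49, adjusted p = 0.0221). The other inhibitor name of this kind, Pm-Timp3, had a log2 fold change of 0.42 and passed in neither fit.

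**Figure D2:**
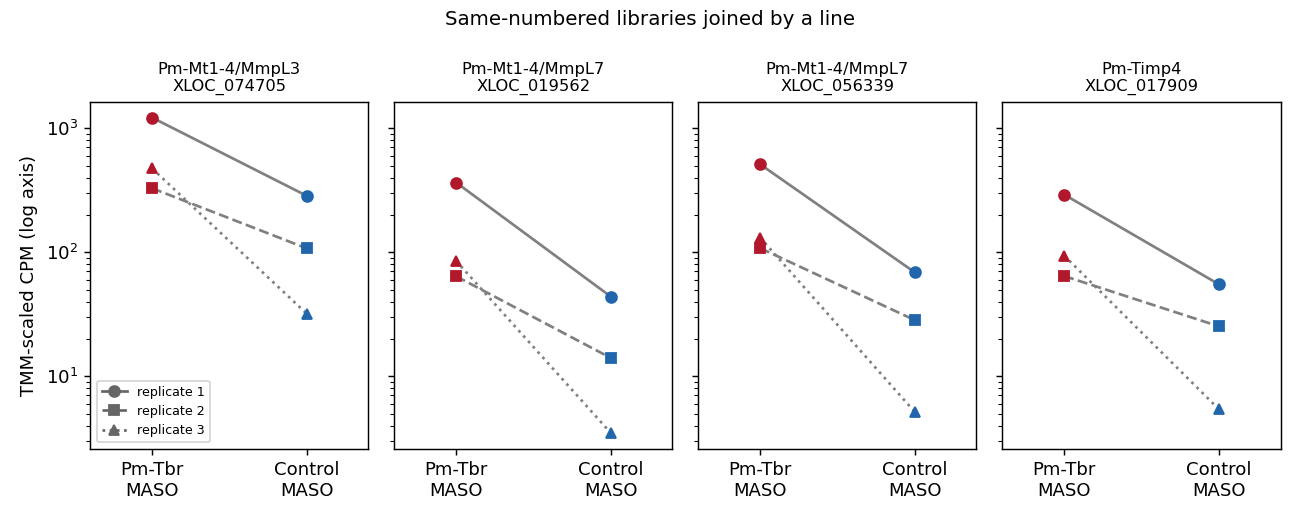
TMM-scaled CPM on a log axis of Pm-Mt1-4/MmpL3, the 2 abundant loci of Pm-Mt1-4/MmpL7 and the inhibitor name Pm-Timp4 in Pm-Tbr MASO (left) and Control MASO (right) libraries, with same-numbered libraries joined. Every line descends to the right, and in each panel replicate 1 is the highest library of its group.

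Pm-Mt5/MmpL3 differed less between groups, and at 2 of its 5 loci the libraries within each group differed by at most 1.32-fold. At XLOC_054262 it had 12.9, 13.5 and 12.6 CPM in Pm-Tbr MASO embryos, against 5.60, 7.38 and 5.76 CPM in Control MASO embryos, a log2 fold change of 1.06 ± 0.25 that did not pass (adjusted p = 0.0689). At XLOC_054260 it had 36.2, 33.5 and 40.4 CPM in Pm-Tbr MASO embryos, against 17.5, 22.0 and 19.7 CPM in Control MASO embryos (0.89 ± 0.22, adjusted p = 0.0721). These loci belong to 1 gene model, lie 232 bases apart on scaffold 5009 and are not separate evidence.

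The locus of the same name XLOC_057347 (scaffold 5463) had 48.8, 27.3 and 29.7 CPM in Pm-Tbr MASO embryos, against 25.2, 18.6 and 11.7 CPM in Control MASO embryos (0.93 ± 0.35, adjusted p = 0.192). With the block these 3 loci were called higher (adjusted p = 0.0294, 0.0381 and 0.0428). At XLOC_064849 the groups did not overlap either, with 25.2, 16.6 and 30.1 CPM in Pm-Tbr MASO embryos, against 13.8, 11.6 and 14.9 CPM in Control MASO embryos, but it passed in neither fit (adjusted p = 0.0578 with the block). The remaining locus, XLOC_001848, was at or below 3.82 CPM in every library and overlapped between groups. The sum over the 5 loci was 126, 93.0 and 114 CPM in Pm-Tbr MASO embryos, against 64.3, 63.5 and 52.3 CPM in Control MASO embryos, so it was 1.85-fold higher on average with no overlap.

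Pm-Mt6_mmpL dominated the family's reads. Its locus XLOC_026942 (scaffold 1964 from 3240 to 18034) ranked 4 of 44120 loci by mean CPM, a scale that is not divided by transcript length. It had 18347, 4381 and 11813 CPM in Pm-Tbr MASO embryos, against 4921, 3988 and 7412 CPM in Control MASO embryos. Each Pm-Tbr MASO library exceeded its same-numbered Control MASO library, by 1.90, 0.14 and 0.67 on the log2 scale, but the groups overlapped because Pm-Tbr MASO replicate 2 lay below Control MASO replicates 1 and 3. The locus passed in neither fit (log2 fold change 1.08 ± 0.48, adjusted p = 0.257, and 0.153 with the block). It took 72.7% to 87.9% of the summed CPM of the 26 loci in Pm-Tbr MASO libraries and 76.6% to 90.5% in Control MASO libraries. In the library where it was highest, Pm-Tbr MASO replicate 1, it held 1.69% of all assigned counts.

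The second Pm-Mt6_mmpL locus fell. XLOC_071324 (scaffold 7898 from 8059 to 19850) had 4.78, 4.05 and 6.54 CPM in Pm-Tbr MASO embryos, against 20.3, 15.2 and 18.4 CPM in Control MASO embryos. The groups were well apart, with a log2 fold change of -1.81 ± 0.29 (adjusted p = 0.0298; 0.00786 with the block). The 2 loci of this name thus had fitted values of opposite sign.

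The MMP names outside the membrane type did not pass in either fit. Pm-Mmp18/19L5 had 191, 85.7 and 149 CPM in Pm-Tbr MASO embryos, against 105, 60.4 and 101 CPM in Control MASO embryos (log2 fold change 0.67 ± 0.34, adjusted p = 0.317). It was higher in all 3 pairs, by 0.86, 0.50 and 0.56 on the log2 scale, but overlapped between groups. Pm-Mmp21L, whose vertebrate namesake acts in left-right asymmetry, had 100.2, 115 and 84.3 CPM in Pm-Tbr MASO embryos, against 138, 131 and 85.5 CPM in Control MASO embryos (adjusted p = 0.641).

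**Figure D3:**
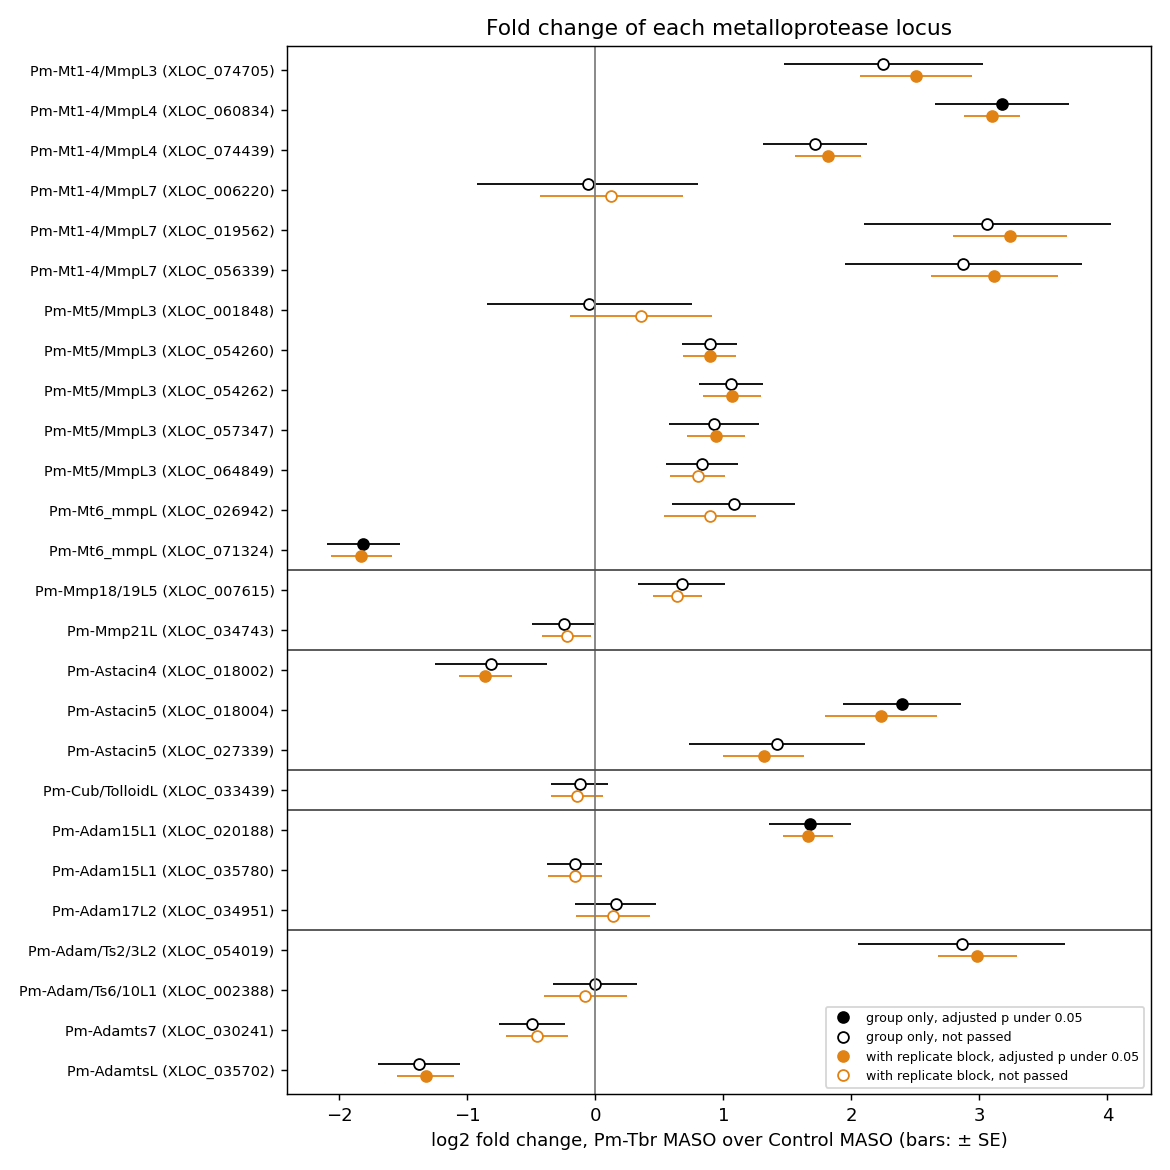
Log2 fold change of each metalloprotease locus, Pm-Tbr MASO over Control MASO, with its SE, from the fit with group alone (black) and with the replicate number as a block (orange); filled symbols passed an adjusted p of 0.05. Black symbols are filled at 4 loci and orange ones at 15, and the 4 loci with filled black symbols are among those 15.

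The astacin names showed opposite directions at neighbouring loci. Pm-Astacin5 at XLOC_018004 (scaffold 1557 from 42760 to 55371, minus strand) had 287, 207 and 76.3 CPM in Pm-Tbr MASO embryos, against 26.7, 43.0 and 38.6 CPM in Control MASO embryos. It rose in every pair without overlap, with a log2 fold change of 2.40 ± 0.46 (adjusted p = 0.0418), but the size was 3.43 on the log2 scale in pair 1, 2.27 in pair 2 and 0.98 in pair 3. Pm-Astacin4 (XLOC_018002) lies 26820 bases away on the opposite strand, from 82192 to 92395. It had 220, 160 and 75.0 CPM in Pm-Tbr MASO embryos, against 395, 238 and 168 CPM in Control MASO embryos. It was lower in every pair, yet the groups overlapped and it did not pass without the block (log2 fold change -0.82 ± 0.44, adjusted p = 0.345), whereas with the block it was called lower (-0.86 ± 0.20, adjusted p = 0.0415).

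Within a library, Pm-Astacin5 had 1.30, 1.30 and 1.02 times the CPM of its neighbour Pm-Astacin4 in Pm-Tbr MASO embryos, against 0.0677, 0.181 and 0.230 times in Control MASO embryos. In both groups Pm-Astacin4 was highest in replicate 1 and lowest in replicate 3. A second Pm-Astacin5 locus, XLOC_027339 on scaffold 19852, had 2.16, 9.46 and 2.80 CPM in Pm-Tbr MASO embryos, against 1.19, 3.23 and 0.993 CPM in Control MASO embryos. It overlapped between groups and was called higher with the block alone (adjusted p = 0.296 without it and 0.0415 with it).

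**Figure D4:**
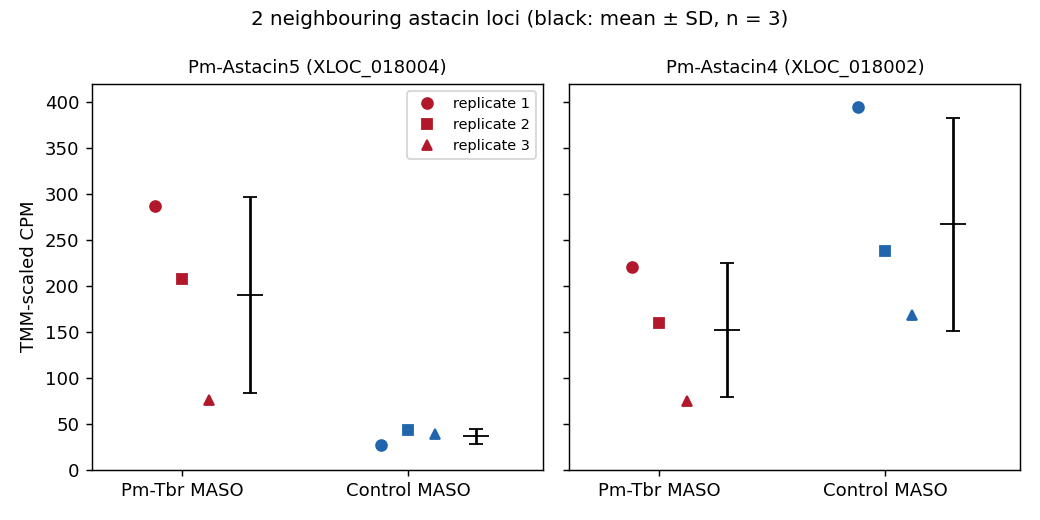
TMM-scaled CPM of the neighbouring loci Pm-Astacin5 (left panel) and Pm-Astacin4 (right panel), 1 symbol per library, with the mean and SD of 3 in black. For Pm-Astacin5 the Pm-Tbr MASO libraries (76.3 to 287) all lie above the Control MASO libraries (26.7 to 43.0), and for Pm-Astacin4 they lie lower but overlap them.

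The tolloid-like name Pm-Cub/TolloidL (XLOC_033439, scaffold 2404) had 32.4, 38.0 and 48.4 CPM in Pm-Tbr MASO embryos, against 43.7, 41.0 and 44.7 CPM in Control MASO embryos. The groups overlapped, and its log2 fold change was -0.12 ± 0.22 (adjusted p = 0.812). Another tolloid-related name, Pm-Bmp1/TldL1, was outside the naming rule. Its more abundant locus had 263, 343 and 188 CPM in Pm-Tbr MASO embryos, against 187, 206 and 235 CPM in Control MASO embryos, and passed in neither fit (0.34 ± 0.26, adjusted p = 0.512). The antagonist Pm-Chordin, named after the classic tolloid substrate, was called lower at both its loci, with log2 fold changes of -4.66 and -4.70 (adjusted p = 0.0208 and 0.0217). Those loci carry a single gene model, lie 50 bases apart and do not count as separate evidence.

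Of the 3 ADAM loci 1 rose, beside 1.36% higher and 0.922% lower of all tested loci. Pm-Adam15L1 at XLOC_020188 (scaffold 164 from 86110 to 125772) had 89.9, 129 and 67.2 CPM in Pm-Tbr MASO embryos, against 32.1, 36.4 and 21.1 CPM in Control MASO embryos. The groups did not overlap and the pairs were close, at 1.49, 1.83 and 1.67 on the log2 scale, for a log2 fold change of 1.68 ± 0.32 (adjusted p = 0.0408). Its end overlaps an unnamed locus on the other strand whose log2 fold change was -0.08 (adjusted p = 0.929). The other Pm-Adam15L1 locus, XLOC_035780 on scaffold 2576, had 37.6, 36.2 and 43.9 CPM in Pm-Tbr MASO embryos, against 50.6, 42.9 and 38.1 CPM in Control MASO embryos and did not pass (-0.16 ± 0.22, adjusted p = 0.731). Pm-Adam17L2, whose mammalian namesake sheds growth factor precursors from the cell surface, lay between 3.21 and 5.20 CPM in both groups and did not pass (adjusted p = 0.827).

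None of the 4 ADAMTS loci passed without the block in the quasi-likelihood test of edgeR, although 2 had an unadjusted p under 0.05 and DESeq2 and the edgeR exact test each called 2. Over all tested loci, 20% had an unadjusted p under 0.05, DESeq2 called 9.25% and the exact test 7.65%. With the block 1 was higher and 1 lower, beside 5.83% and 4.26% of all tested loci. Pm-Adam/Ts2/3L2, named after enzymes that trim procollagen in mammals, had 31.8, 24.3 and 5.76 CPM in Pm-Tbr MASO embryos, against 5.79, 1.91 and 0.795 CPM in Control MASO embryos. The lowest Pm-Tbr MASO value and the highest Control MASO value nearly coincided, yet every pair was higher, by 2.46, 3.67 and 2.86 on the log2 scale. Its log2 fold change was 2.86 ± 0.81 without the block (adjusted p = 0.104) and 2.99 ± 0.31 with it (adjusted p = 0.00457).

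Pm-AdamtsL (XLOC_035702) had 13.9, 15.0 and 10.7 CPM in Pm-Tbr MASO embryos, against 44.2, 37.7 and 20.9 CPM in Control MASO embryos. It did not overlap between groups and was called lower with the block (log2 fold change -1.33 ± 0.23, adjusted p = 0.0159), after missing the threshold without it (-1.38 ± 0.32, adjusted p = 0.0666). Pm-Adamts7 was lower in each Pm-Tbr MASO library than in any Control MASO library, with 61.6, 55.7 and 65.4 CPM in Pm-Tbr MASO embryos, against 75.2, 116 and 66.5 CPM in Control MASO embryos, but passed in neither fit (adjusted p = 0.326, and 0.267 with the block). Pm-Adam/Ts6/10L1 averaged 61.9 ± 25.7 CPM in Pm-Tbr MASO embryos and 62.0 ± 9.04 CPM in Control MASO embryos (SD, n = 3 each; adjusted p = 0.999).

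Genes that act with these enzymes were described from lists of names. Of 13 loci of inhibitors and of proprotein convertases, the proteases that activate many MMP and ADAM precursors, 0 passed without the block in the quasi-likelihood test of edgeR, 2 had an unadjusted p under 0.05, and DESeq2 called 1 and the exact test 0, beside 20%, 9.25% and 7.65% of all tested loci. With the block Pm-Timp4 was called higher, beside 5.83% of all tested loci called higher and 4.26% lower. The median log2 fold change of the 13 loci was 0.07. No convertase locus passed in either fit. At its locus with the highest CPM Pm-Pcsk5 had 107, 117 and 105 CPM in Pm-Tbr MASO embryos, against 89.6, 91.0 and 132 CPM in Control MASO embryos (log2 fold change 0.07, adjusted p = 0.892).

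Of 8 loci of other surface or secreted metallopeptidases, named after endothelin-converting and angiotensin-converting enzymes, 0 passed without the block in the quasi-likelihood test of edgeR, 2 had an unadjusted p under 0.05, and DESeq2 and the exact test each called 1, beside the same 20%, 9.25% and 7.65% of all tested loci. Beside 5.83% of all tested loci called higher and 4.26% lower with the block, Pm-Acel_7 was higher. That locus had 7.12, 17.3 and 3.69 CPM in Pm-Tbr MASO embryos, against 1.65, 2.06 and 2.30 CPM in Control MASO embryos (adjusted p = 0.0771, and 0.0392 with the block).

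Among 26 loci listed as tolloid substrates and the BMP side, which included many secreted frizzled-related (Pm-Sfrp) names, the median log2 fold change was -0.44. In 7 every Pm-Tbr MASO library was below every Control MASO library and in 1 above, beside 13.3% of tested loci each way. Of the 26 loci 2 were lower, both Pm-Chordin, and 24 did not pass, and with the block 1 was higher and 4 lower. Over all tested loci 1.36% were called higher and 0.922% lower, and with the block 5.83% and 4.26%. The further ones were Pm-Bmp3b, higher, and the lysyl oxidase names Pm-Lox and, at XLOC_032313, Pm-Loxl2, lower. That Pm-Loxl2 locus overlapped between groups (adjusted p = 0.336, and 0.0465 with the block). The more abundant locus of that name, XLOC_071641, overlapped too and passed in neither fit (log2 fold change -0.39, adjusted p = 0.761, and 0.467 with the block). Pm-Lox, a collagen cross-linking enzyme, had 0.350, 1.07 and 0.335 CPM in Pm-Tbr MASO embryos, against 2.45, 4.30 and 2.58 CPM in Control MASO embryos (log2 fold change -2.35, adjusted p = 0.0709, and 0.0129 with the block).

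Of 78 matrix loci, which included many fibronectin type III domain names, 1, Pm-Co5a1, was higher and 77 did not pass, and with the block 10 were higher and 1 lower, beside the same shares of all tested loci. Their median log2 fold change was 0.20, against 0.86 for the metalloprotease loci. Of the 26 loci with laminin names, 0 passed without the block in the quasi-likelihood test of edgeR. In that test 7 had an unadjusted p under 0.05, and DESeq2 and the exact test each called 6. Over all tested loci these held for 20%, 9.25% and 7.65%. In 9 every Pm-Tbr MASO library was above every Control MASO library and in 0 below, beside 13.3% of tested loci each way. With the block 5 were higher and 21 did not pass, beside 5.83% of all tested loci called higher and 4.26% lower. The one with the highest CPM among the 5, Pm-LamB2Lf at XLOC_076395, had 224, 127 and 247 CPM in Pm-Tbr MASO embryos, against 84.6, 75.2 and 116 CPM in Control MASO embryos (1.12, adjusted p = 0.0955, and 0.0229 with the block). The fibrillin name Pm-Fbn2L_1 had 559, 754 and 1124 CPM in Pm-Tbr MASO embryos, against 1686, 1309 and 2117 CPM in Control MASO embryos at the locus called lower with the block (-1.07, adjusted p = 0.106, and 0.0314 with the block). The other locus of that name, XLOC_017393, lay in the opposite direction without overlap and passed in neither fit, with 165, 180 and 181 CPM in Pm-Tbr MASO embryos, against 84.8, 134 and 107 CPM in Control MASO embryos (0.69, adjusted p = 0.144, and 0.0649 with the block).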

How the data were processed

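The authors deposited raw counts of reads, as whole numbers for each locus and library. Tools named in the submitters' processing notes include TopHat2 2.0.12, Cufflinks 2.2.1, HTSeq 0.6.1p1 and edgeR 3.10.5; build and strand setting are not stated. From the authors' deposited comparison, which holds log2 fold changes, log2 CPM, F scores, false discovery rates and p-values, came gene names and positions. The 5 summary lines per file, which held 49.0% to 50.6% of its total count, mostly reads aligned to several places, stayed out of library sizes and tests.

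Counts were scaled by TMM, filtered by filterByExpr (44120 loci) and tested in edgeR 4.0.16 (R 4.3.3) by its quasi-likelihood test, with group as the only term; Benjamini-Hochberg adjustment ran over all tested loci, with a threshold of 0.05. An SE is the size of the log2 fold change over the square root of F, and CPM values are TMM-scaled. DESeq2 1.42.0, other scalings and filters, the exact test, a replicate block and each library left out served as alternatives. The deviations of same-numbered libraries from their group means correlated at 0.53, 0.22 and 0.56 over the tested loci, against -0.47 to -0.05 for unlike numbers. Deviations from a group mean cancel out within the group, so positive values for same numbers force negative ones on average for unlike numbers. The contrast is thus not an independent comparison. The pairing by replicate number comes from the counts, not from a stated batch. Members, lists and tests were chosen with earlier results of these data known. Every member could be named. Values per library are given for those called in either fit, the most abundant and the tolloid-like name, and for some further members that passed in neither fit. From the lists, names of unrelated genes caught by the same letters were then removed, as were Pm-Adam10 and names beginning with Pm-Bmp1/Tld.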

Additional observations from a re-analysis of the deposited data

How the results depend on the processing

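Over 338 values of the 26 loci under the alternatives, 281 kept their direction and their side of the threshold. All tested loci gave 1008 calls, against 4081 with DESeq2, 3374 with the edgeR exact test, 4455 with the replicate block and 0 to 479 with a library left out; the 0, without Control MASO replicate 2, stood beside 6643 loci at an unadjusted p under 0.05. The 3 metalloprotease rises became 8, 9 and 12 under those 3 alternatives, 5 with only loci above 2 CPM in 3 libraries, and 0 to 2 with a library left out. The 1 fall became 2, 2 and 3, and 0 to 1 with a library left out. Other scalings and no filter left 3 rises and 1 fall. With only loci above 2 CPM in 3 libraries 5.24% of the tested loci were called, against 2.28% with filterByExpr. Values near 0 changed sign: Pm-Adam/Ts6/10L1 to 0.031 with the CPM filter (-0.32 to 0.27 with a library left out), Pm-Mt1-4/MmpL7 at XLOC_006220 to 0.13 with the replicate block (-0.95 to 0.94), Pm-Mt5/MmpL3 at XLOC_001848 to 0.35 with the replicate block (-0.57 to 0.72), and Pm-Adam17L2 with a library left out (-0.0063 to 0.31). The causes were not tested. The 4 called loci kept their direction throughout, at 2.63 to 3.59 for Pm-Mt1-4/MmpL4, 1.96 to 2.77 for Pm-Astacin5, 1.39 to 1.87 for Pm-Adam15L1 and -2.03 to -1.67 for Pm-Mt6_mmpL with a library left out. Low depth limits Pm-Mt5/MmpL3 at XLOC_001848, with 6 counts in Control MASO replicate 3.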

Other observations

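2 loci carried a metalloprotease name beside an uncharacterized one and were left out by the naming rule. The one that includes Pm-Mt6_mmpL had 43.7, 31.1 and 39.2 CPM in Pm-Tbr MASO embryos, against 62.2, 50.6 and 75.2 CPM in Control MASO embryos (log2 fold change -0.72, adjusted p = 0.152). The one that includes Pm-Adam17L2 had 9.21, 9.40 and 7.94 CPM in Pm-Tbr MASO embryos, against 7.90, 8.34 and 8.58 CPM in Control MASO embryos (0.10, adjusted p = 0.865).

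A locus named Pm-He1 (XLOC_007618) overlaps the end of Pm-Mmp18/19L5 on the other strand. It had 391, 712 and 544 CPM in Pm-Tbr MASO replicates 1 to 3, against 52.0, 274 and 469 CPM in Control MASO replicates 1 to 3 (log2 fold change 1.05, adjusted p = 0.409). Control MASO replicate 1 was its lowest library, while that library was the highest of its group for Pm-Mt1-4/MmpL3 and both abundant Pm-Mt1-4/MmpL7 loci.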
